A study of Saccharomyces cerevisiae S288C with 9 samples.

Results

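The rows described here are the reading frames of Ty1 and Ty2, the abundant long terminal repeat (LTR) retrotransposons of budding yeast. They were chosen by name, as the listed TYA and TYB frames found in the deposited gene count table. The rule sets no threshold on their values, but the list was drawn up with earlier results of these data known. All 59 listed frames were present among the 7127 rows of the table. They belong to 30 elements, 23 of Ty1 and 7 of Ty2, while the annotation of this genome names 44 Ty1 and Ty2 elements. RNA was sequenced from Saccharomyces cerevisiae S288C grown in YPD, a rich glucose medium, to mid-log phase without treatment. The 3 genotypes were the WT Control, Set1 S228A and Set1 S228E, with 3 libraries each that the submitters call biological replicates. Set1 is the enzyme of COMPASS that methylates lysine 4 of histone H3, and a serine of it was changed to alanine, which cannot be phosphorylated, or to glutamate, often used to imitate phosphoserine. The labels give no mating type, ploidy, number of clones or way of introducing the alleles.

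A Ty1 or Ty2 element is transcribed from its upstream LTR into an RNA that is both template for reverse transcription and message. TYA encodes the capsid protein Gag, and ribosomes that shift frame by 1 base near the end of TYA go on into TYB, which encodes protease, integrase and reverse transcriptase. Ty1 transcription depends on Ste12 and Tec1, the factors of the filamentation pathway, and new copies enter the genome mostly upstream of genes transcribed by RNA polymerase III. Set1 and antisense RNA of Ty1 have both been tied to transcriptional silencing of Ty1.

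The LTR stretch upstream of TYA is shown first, because the elements carry different forms of a Ste12 element there. All sequences are from the R64 genome, the sacCer3 build, on the strand of the element, and lie upstream of the TYA start codon. Capitals mark TGAAACG, the variant of the Ste12 element found with Tec1 sites in filamentation response elements, or TGAAACA, the Ste12 pheromone response element. Each line is named by the TYA row it precedes. The first lines belong to the elements whose long rows, YDR098C-B of Ty1 and YDR261W-B of Ty2, had the largest change of their family in S228A. The next precedes YJR026W, whose long row YJR027W was the most abundant, and the last 4 come from elements with the other form. These 90-base stretches lie at chrIV:651232-651321 (minus strand), chrIV:981267-981356 (plus), chrX:472565-472654 (plus), chrXIII:362733-362822 (minus), chrII:221135-221224 (plus), chrVIII:549452-549541 (minus) and chrXIII:184266-184355 (plus).
YDR098C-A: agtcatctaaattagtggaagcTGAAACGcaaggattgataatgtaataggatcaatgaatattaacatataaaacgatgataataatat
YDR261W-A: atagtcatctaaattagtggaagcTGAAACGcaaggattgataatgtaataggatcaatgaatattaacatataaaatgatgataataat
YJR026W: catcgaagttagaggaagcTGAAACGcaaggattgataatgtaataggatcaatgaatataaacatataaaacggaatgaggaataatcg
YMR046C: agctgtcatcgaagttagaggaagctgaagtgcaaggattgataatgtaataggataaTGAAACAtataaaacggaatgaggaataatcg
YBL005W-A: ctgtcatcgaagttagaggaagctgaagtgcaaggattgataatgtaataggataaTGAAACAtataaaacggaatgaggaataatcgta
YHR214C-C: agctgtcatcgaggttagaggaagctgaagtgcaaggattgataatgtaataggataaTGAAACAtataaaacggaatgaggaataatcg
YML045W-A: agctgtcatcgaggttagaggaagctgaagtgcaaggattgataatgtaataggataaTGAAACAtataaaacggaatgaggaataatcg
A line with 1 form of the element lacks the other form at both places. The stretches of YHR214C-C and YML045W-A are the same letter for letter, although their elements sat at opposite ends of the range of responses among elements with this form.

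The end of TYA is shown because it fixes what each row counts. The capitals mark CTTAGGC, the heptamer at which ribosomes change frame, in the abundant Ty1 row YJR027W (chrX:474052-474102, plus strand) and the Ty2 row YDR261W-B (chrIV:982742-982798, plus strand).
YJR027W: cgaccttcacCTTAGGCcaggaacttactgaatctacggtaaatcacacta
YDR261W-B: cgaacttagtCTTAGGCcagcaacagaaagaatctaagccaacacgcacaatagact
The annotation gives most elements a TYA frame nested inside a longer frame that reads through this heptamer into TYB. Of the 29 TYA rows, 28 lay wholly inside such a longer row and had 0 counts in every library, since the authors' counting leaves out reads that fall on overlapping rows. Those zeros hold no information on TYA RNA. The exception is YAR010C, whose element has separate TYA and TYB rows. The counts of the other elements are therefore those of the TYB stretch, 3946 bases in most Ty1 rows and 3997 in Ty2 rows.

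The copies are close to identical, and the counting set no option to include reads placed at several sites. Of the 31 rows with enough counts to be tested, 10 had no window of 100 bases that occurs once in the genome and 21 had at least 1. The rows YGR161W-B and YFL002W-A are identical over their whole length. Single rows therefore state where reads were assigned, and the sum over rows is given beside them. In YDR098C-B, the row with the largest change, 115 of 3946 windows of 100 bases (2.91%) occur once in the genome. It differs from its nearest copy YGR038C-B at 31 bases, 26 of them in its TYB stretch. The 60 bases where these copies differ most are shown for that reason (chrIV:646640-646699 and chrVII:562981-563040, both minus strand), with the 10 differing bases in capitals.
YDR098C-B: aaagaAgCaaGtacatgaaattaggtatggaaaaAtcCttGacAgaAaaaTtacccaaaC
YGR038C-B: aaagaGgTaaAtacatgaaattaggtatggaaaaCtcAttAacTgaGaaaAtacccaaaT

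The libraries held 14455017 to 19658103 gene counts, and 6133 rows were tested with edgeR's quasi-likelihood test. Calls needed an adjusted p (Benjamini-Hochberg) below 0.05 together with a change of more than 1.5-fold. Levels are counts per 1e6 after TMM scaling (CPM). A substitution in SET1 cannot be checked from gene counts. The genes of a-cell identity were higher in S228A, all 7 of 7 (median log2 2.68), with a summed level of 7565 to 9037 CPM there, 1435 to 1757 CPM in WT and 1623 to 1767 CPM in S228E. Of 4 alpha-cell genes 2 were called higher, with a summed level of 57.8 to 61.0 CPM in WT and 137 to 208 CPM in S228A, and of 6 haploid genes only GPA1 was. Over all tested rows 4.37% were called higher in S228A. No marker was at 0 in all libraries. The part of these changes in the Ty results was not tested. In bulk RNA, more cells with Ty RNA and more Ty RNA per cell cannot be told apart, and reads were counted without strand, so sense and antisense RNA of an element share a row.

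Ty1 and Ty2 RNA was higher in S228A than in WT. Summed over the 59 rows, the level was 1218, 1181 and 1337 CPM in the WT libraries, 3115, 2600 and 2755 CPM in S228A and 1508, 1385 and 1394 CPM in S228E. Each S228A library lay far above every other library, and the lowest S228E value lay just above the highest WT value. The ratio of the means was 2.27 for S228A against WT and 1.15 for S228E against WT. As a share of all gene counts the rows made up 0.116% to 0.135% in WT, 0.267% to 0.304% in S228A and 0.139% to 0.156% in S228E, with 95% Wilson intervals of at most 0.00255 percentage points on each side, which cover counting error only. The Ty1 rows rose from 1199 ± 74.7 to 2688 ± 265 CPM (SD, n = 3), a ratio of 2.24, and the Ty2 rows from 46.4 ± 7.09 to 136 ± 6.57 CPM, a ratio of 2.92. The Ty2 sum includes YDR261W-B, which rose 5.60-fold, while the other Ty2 rows at 5 CPM or more rose 1.73-fold to 2.31-fold. Over the tested rows the median fold change was 2.26 in both families. In S228E the Ty2 sum was 46.5 ± 7.06 CPM, a ratio of 1.00 to WT. No p was computed for these sums.

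**Figure D1:**
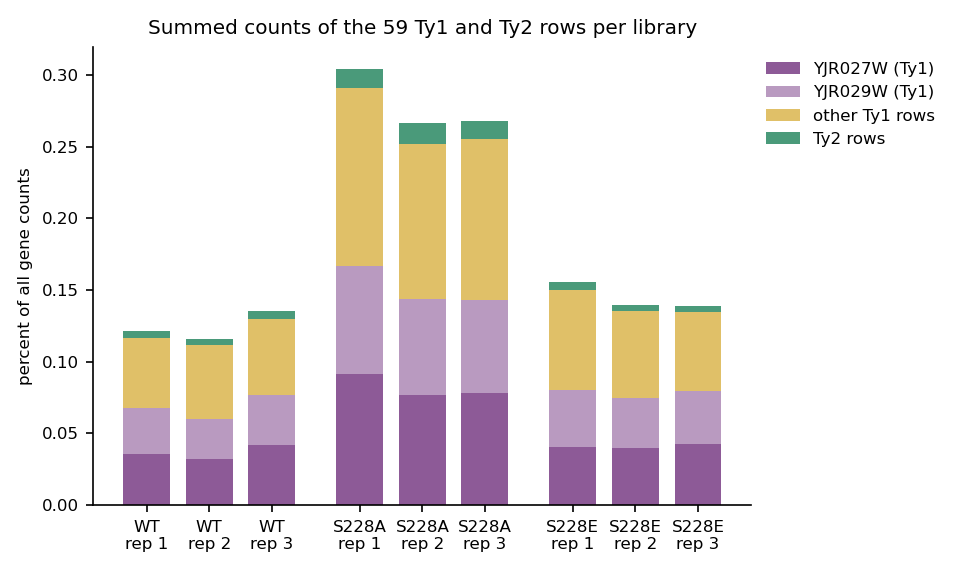
Stacked bars give the share of all gene counts (percent, from 0) held by the 59 Ty1 and Ty2 rows in each of the 9 libraries, split into YJR027W, YJR029W, the other Ty1 rows and the Ty2 rows. The S228A bars reach 0.267% to 0.304% and the WT bars 0.116% to 0.135%.

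In S228A against WT, 24 of the 31 tested rows were called higher by edgeR, 23 by limma-voom and 25 by DESeq2. None was called lower by any of these tools, and none was lower at an unadjusted p under 0.05. The edgeR background over all 6133 rows was 4.37% higher, 7.81% lower and 12.2% in either direction. All 31 estimates lay above 0, with a median log2 fold change of 1.18 (2.26-fold) and a range from 0.49 to 4.59, against a median of -0.0067 over all tested rows. In 25 of the 31 rows every S228A value lay above every WT value, which was so for 20.2% of all tested rows. By family, 20 of 24 tested Ty1 rows and 4 of 7 Ty2 rows were called. All 31 rows reached the count minimum in at least 3 of the 6 WT and S228E libraries, so none entered the test through S228A alone.

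**Figure D2:**
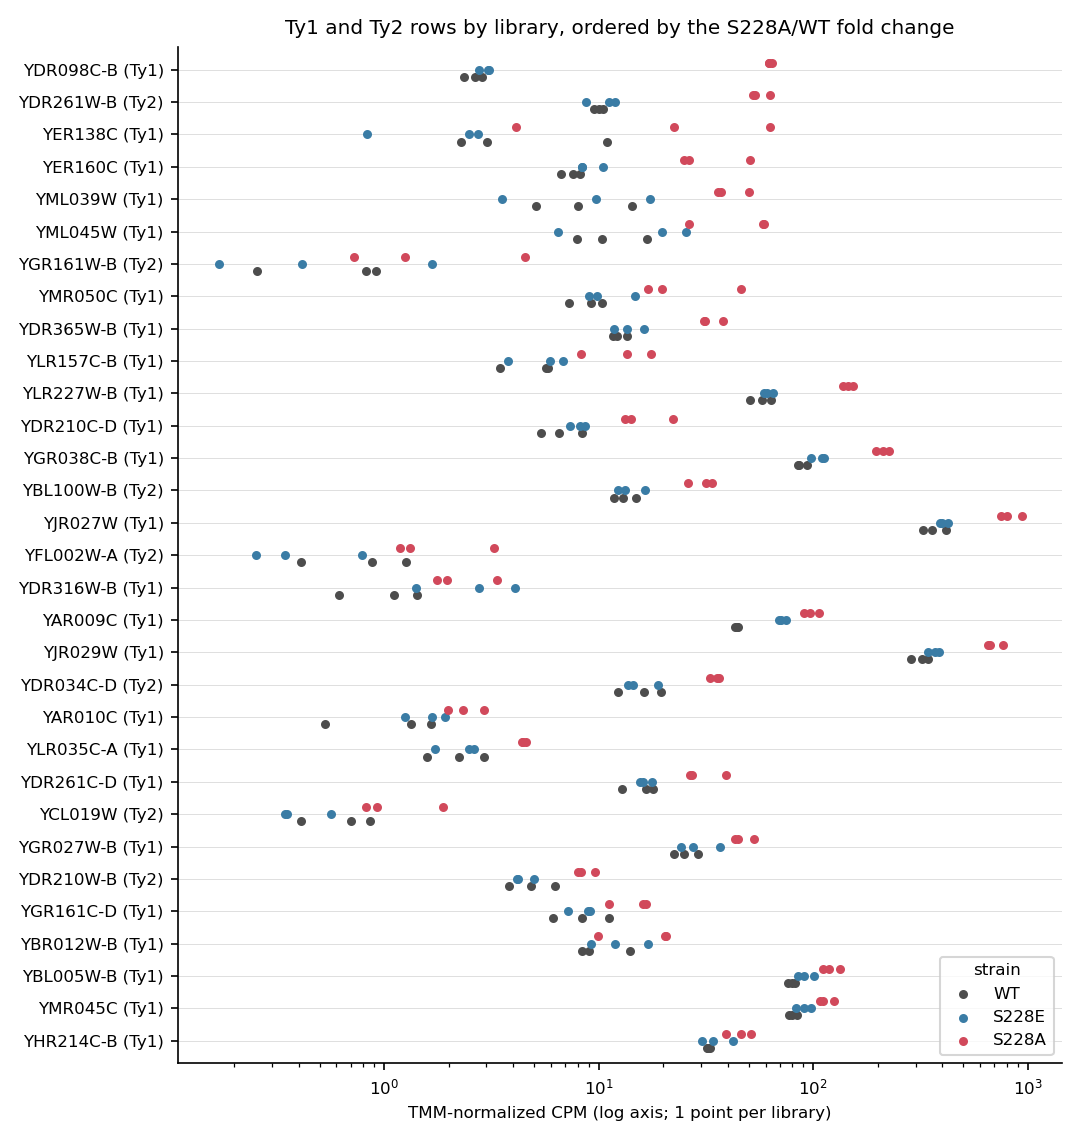
Each point is 1 library, the horizontal axis is CPM on a log scale, and the 31 tested rows are ordered by their fold change in S228A against WT. The S228A points lie to the right of the WT points in 25 rows, and the rows span levels from under 1 to 939 CPM.

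YDR098C-B, a Ty1 frame on chromosome IV (645858 to 651126, minus strand), had the largest change. It measured 2.35, 2.64 and 2.86 CPM in the WT libraries, 64.5, 62.1 and 62.4 CPM in S228A and 3.08, 2.77 and 3.05 CPM in S228E. The row was scarce in WT and S228E and high in all 3 S228A libraries, whose values were within 1.04-fold of each other. The fold change was 24.1 (log2 4.59 ± 0.11, SE, edgeR adjusted p = 1.28e-11). It ranged from log2 4.51 to 4.67 when any 1 library was left out. Only 2.91% of the row's 100-base windows are unique, so these values hold for the reads assigned to it. Its nearest copy YGR038C-B rose 2.39-fold, and the flanking genes were not called. GRX3, a glutaredoxin gene 572 bases downstream, had log2 0.23 ± 0.08 and BMH2, a 14-3-3 protein gene 2188 bases upstream, 0.17 ± 0.08. The tRNA gene row tQ(UUG)D2, 278 bases away, had 0 counts in all 9 libraries.

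The Ty2 frame YDR261W-B, also on chromosome IV (981462 to 986775, plus strand), had the next largest change. Its levels were 10.5, 9.50 and 10.1 CPM in the WT libraries, 53.4, 62.7 and 52.3 CPM in S228A and 11.9, 8.75 and 11.2 CPM in S228E. S228A stood apart from both other strains, which overlapped. The fold change was 5.60 (log2 2.48 ± 0.12, edgeR adjusted p = 7.76e-09). The Ty1 frame YDR261C-D, the element facing it on the other strand, rose 1.97-fold (log2 0.98 ± 0.16). The tRNA row tS(AGA)D2, 116 bases from the element, held 1, 1 and 6 counts in WT and 16, 18 and 19 counts in S228A. It was called higher (log2 2.64 ± 0.63, edgeR adjusted p = 0.00594). Its WT and S228E levels, at most 0.347 CPM, lay under the filter minimum of 0.558 CPM. The row thus entered the test through S228A alone, and its call carries little weight.

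The 4 next Ty1 frames had estimates above 4-fold but were uneven among libraries. YER160C rose from 6.70, 7.57 and 8.18 CPM in WT to 26.5, 24.9 and 50.9 CPM in S228A (4.56-fold, log2 2.19 ± 0.25, edgeR adjusted p = 1.99e-05). YML039W went from 5.11, 14.3 and 8.01 CPM to 50.1, 37.3 and 35.9 CPM (4.53-fold). YML045W went from 7.92, 16.7 and 10.4 CPM to 58.7, 26.5 and 58.3 CPM (4.11-fold). In these 3 rows the WT and S228A values did not overlap. YER138C measured 10.99, 2.29 and 3.03 CPM in the WT libraries, 22.4, 4.13 and 63.1 CPM in S228A and 2.73, 2.48 and 0.832 CPM in S228E, so its S228A values spanned 15.3-fold and overlapped with WT. Its fold change of 5.39 (log2 2.43 ± 0.76, edgeR adjusted p = 0.0252) became 2.40 (adjusted p = 0.189) without S228A replicate 3 and 11.2 without WT replicate 1. It was also not called without WT replicate 2 (4.21-fold, adjusted p = 0.0695) or WT replicate 3 (4.46-fold, adjusted p = 0.0705). YER138C and YML039W differ at 3 bases, and YER138C, YER160C and YML045W have no unique window of 100 bases.

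The most abundant rows were YJR027W and YJR029W, which lie side by side on chromosome X and held 29.1% and 25.1% of all member counts. YJR027W measured 360, 325 and 414 CPM in the WT libraries, 939, 751 and 803 CPM in S228A and 391, 397 and 427 CPM in S228E (2.27-fold in S228A, log2 1.18 ± 0.10, edgeR adjusted p = 2.08e-06). YJR029W measured 320, 287 and 342 CPM in the WT libraries, 771, 653 and 665 CPM in S228A and 384, 344 and 368 CPM in S228E (2.20-fold, log2 1.14 ± 0.09). Both rows had S228A values above all others. Per kb of the counted stretch, their mean WT levels were 92.8 and 80.2 CPM, the next row YGR038C-B had 22.3 and YDR098C-B 0.663. Without both rows the sum still had a ratio of 2.30. YJR029W and YGR038C-B have no unique window of 100 bases, so their levels rest on how reads were assigned among copies. Unique windows of 100 bases made up 5.93% of those of YJR027W and 2.91% of those of YDR098C-B. The levels per kb therefore do not compare the RNA of single elements.

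YGR038C-B, YLR227W-B and YDR365W-B had changes between 2.39-fold and 2.68-fold. YGR038C-B rose from 85.1, 93.7 and 85.7 CPM in WT to 225, 196 and 213 CPM in S228A (2.39-fold, log2 1.26 ± 0.08, edgeR adjusted p = 1.17e-07). YLR227W-B rose from 50.9, 63.5 and 57.4 CPM to 153, 145 and 138 CPM (2.53-fold, log2 1.34 ± 0.09). YDR365W-B rose from 12.2, 11.7 and 13.6 CPM to 30.99, 38.1 and 31.2 CPM (2.68-fold, log2 1.42 ± 0.13). In these 3 rows all S228A values exceeded all WT and S228E values. Of the 25 rows at a mean of 5 CPM or more, 22 were called higher.

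The other Ty2 rows at 5 CPM or more rose by smaller factors than YDR261W-B. YBL100W-B measured 13.04, 11.7 and 14.9 CPM in WT against 33.8, 31.7 and 26.1 CPM in S228A (2.31-fold, log2 1.20 ± 0.14, edgeR adjusted p = 2.81e-05). YDR034C-D measured 16.3, 12.3 and 19.6 CPM against 33.0, 36.4 and 35.6 CPM (2.18-fold), and YDR210W-B 4.86, 3.81 and 6.24 CPM against 9.59, 8.26 and 8.04 CPM (1.73-fold, adjusted p = 0.00586). None of these 3 rows overlapped between WT and S228A, and their S228E means of 14.01, 15.7 and 4.47 CPM lay beside WT means of 13.2, 16.03 and 4.97 CPM.

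The remaining called Ty1 rows at low or middle levels are given next. YGR027W-B differs from YJR029W at 24 bases and has no unique window of 100 bases. It rose from 24.9, 22.3 and 29.1 CPM in WT to 52.9, 43.2 and 44.7 CPM in S228A (1.84-fold). YDR210C-D rose from 6.54, 5.40 and 8.35 CPM to 22.1, 13.3 and 14.2 CPM (2.44-fold). YLR157C-B rose from 3.48, 5.81 and 5.66 CPM to 13.5, 17.5 and 8.26 CPM (2.64-fold). All 3 had S228A values above their WT values. YMR050C went from 9.20, 7.27 and 10.4 CPM to 46.1, 19.7 and 16.9 CPM (3.07-fold), where 1 S228A library was well above the others. YLR035C-A, a shortened frame with no TYA row, went from 2.91, 1.58 and 2.23 CPM to 4.57, 4.44 and 4.41 CPM (1.98-fold, adjusted p = 0.00706). YDR261C-D, given beside YDR261W-B, went from 12.8, 17.9 and 16.6 CPM to 39.3, 27.2 and 26.6 CPM.

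The 7 rows not called in S228A missed the call in different ways. YHR214C-B and YMR045C passed the p but not the fold threshold. YMR045C measured 77.1, 80.1 and 84.2 CPM in WT against 125, 112 and 107 CPM in S228A (1.43-fold, log2 0.51 ± 0.08, edgeR adjusted p = 0.000433). YHR214C-B measured 32.2, 33.0 and 32.04 CPM in WT against 51.3, 39.4 and 45.9 CPM in S228A (1.404-fold, log2 0.49 ± 0.12, adjusted p = 0.00735), and without S228A replicate 2 it was called at 1.51-fold. Neither row overlapped between WT and S228A. YBR012W-B, with 9.0, 8.39 and 14.1 CPM in WT against 20.5, 20.5 and 9.91 CPM in S228A (log2 0.70 ± 0.29, adjusted p = 0.0827), overlapped between the strains, and it was called without WT replicate 3 (1.964-fold) or without S228A replicate 3 (1.957-fold). The others, the Ty1 row YDR316W-B and the Ty2 rows YCL019W, YFL002W-A and YGR161W-B were scarce, with means of 0.421 to 2.76 CPM per strain. YDR316W-B was called without WT replicate 3 (2.77-fold) and in 2 of the 3 fits without an S228E library. It was also called by DESeq2 and in the fit of the 6 WT and S228A libraries. YGR161W-B was called without S228A replicate 2 (4.44-fold).

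The called row with the smallest change was YBL005W-B, with 79.7, 82.2 and 76.7 CPM in WT against 134, 118 and 111 CPM in S228A (1.52-fold, log2 0.60 ± 0.09, edgeR adjusted p = 0.00017). It fell to 1.44-fold, under the threshold, without S228A replicate 1. YGR161C-D (1.71-fold) and YAR010C, the TYA row with counts of its own (1.17 ± 0.582 CPM in WT and 2.41 ± 0.469 CPM in S228A, 2.03-fold), were called in the full data but not in 3 and 4 of the 9 fits that leave out 1 library.

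**Figure D3:**
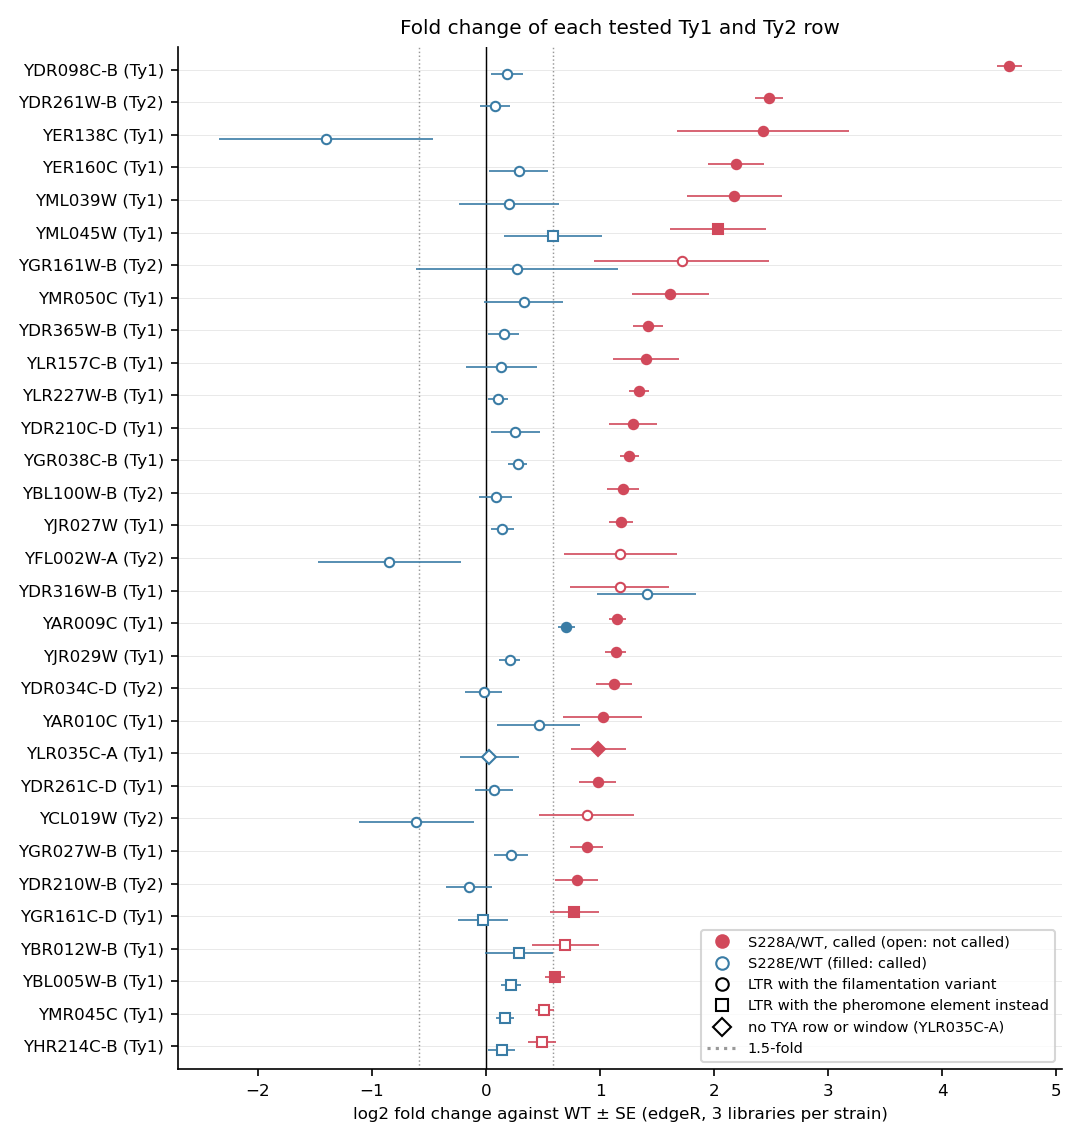
Points give the log2 fold change against WT with its SE from edgeR for the 31 tested rows, in S228A (red) and S228E (blue). Filled points were called, circles and squares separate the LTR forms, and dotted lines stand at 1.5-fold. In S228A the estimates run from 0.49 to 4.59, and in S228E only YAR009C is filled.

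The form of the Ste12 element in the LTR varied together with the size of the change among these elements. Of the 29 elements with a TYA row, 23 had TGAAACG, at 171, 173 or 176 bases before the start codon, and 6, all of Ty1, had TGAAACA instead, at 137 or 139 bases. The elements with TGAAACA were those of YHR214C-B, YMR045C, YBL005W-B, YBR012W-B, YGR161C-D and YML045W. The first 5 of them held the 5 smallest estimates in S228A among the 29, from log2 0.49 to 0.78, while YML045W stood at 2.04. The median was 0.65 for the 6 and 1.26 for the 23, whose estimates ran from 0.79 to 4.59. The grouping was noticed after the values were seen, so it carries no test. The Ty1 and Ty2 elements outside the 59 rows were not ordered in this way: the 2 with TGAAACA had log2 1.18 (YNL284C-B) and 1.50 (YOR142W-B), within the range of 0.17 to 2.29 of the 10 with TGAAACG.

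In windows from 250 bases before to 50 bases after the start codon, searched on both strands, 6 of the 29 TYA windows held TGAAACA and 23 held TGAAACG. Among 5897 windows of protein-coding genes outside transposons, called all windows here, the shares were 7.31% and 3.53%. The Tec1 site CATTCC occurred in 16 of the 29 and CATTCT in 4, against 10.2% and 19.3% of all windows. TGACTC, the core of the Gcn4 site, occurred in none of the 29 and in 8.11% of all windows. TGAAACA and TGAAACG share all but the last letter, as do CATTCT and CATTCC, so 1 position can match only 1 of a pair. The elements are copies of each other, so their matches are not independent. Outside these windows, the Ty1 elements held TGACTC inside TYA, 439 bases after the start codon on the opposite strand. Most of them also held TGAAACA there, at 858 bases in that of YJR027W, but those of YMR045C and YBL005W-B did not. Most of the 29 elements, of Ty1 and Ty2, held CATTCT inside TYA on the opposite strand, 242 bases after the start codon. Those of YMR045C and YBL005W-B lacked that match. No share over other genes was computed for matches inside frames. A further TGAAACG lies on the opposite strand inside TYA, about 102 bases after the start codon. It was present in 27 of the 29 elements and absent from those of YMR045C and YBL005W-B. The stretch is shown for the abundant Ty1 element (YJR026W, chrX:472850-472899, plus strand), with the match in capitals as its reverse complement, and for the element without it (YBL005W-A, chrII:221420-221469, plus strand).
YJR026W: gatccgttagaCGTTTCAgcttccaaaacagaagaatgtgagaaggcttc
YBL005W-A: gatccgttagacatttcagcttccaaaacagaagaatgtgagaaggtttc

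**Figure D4:**
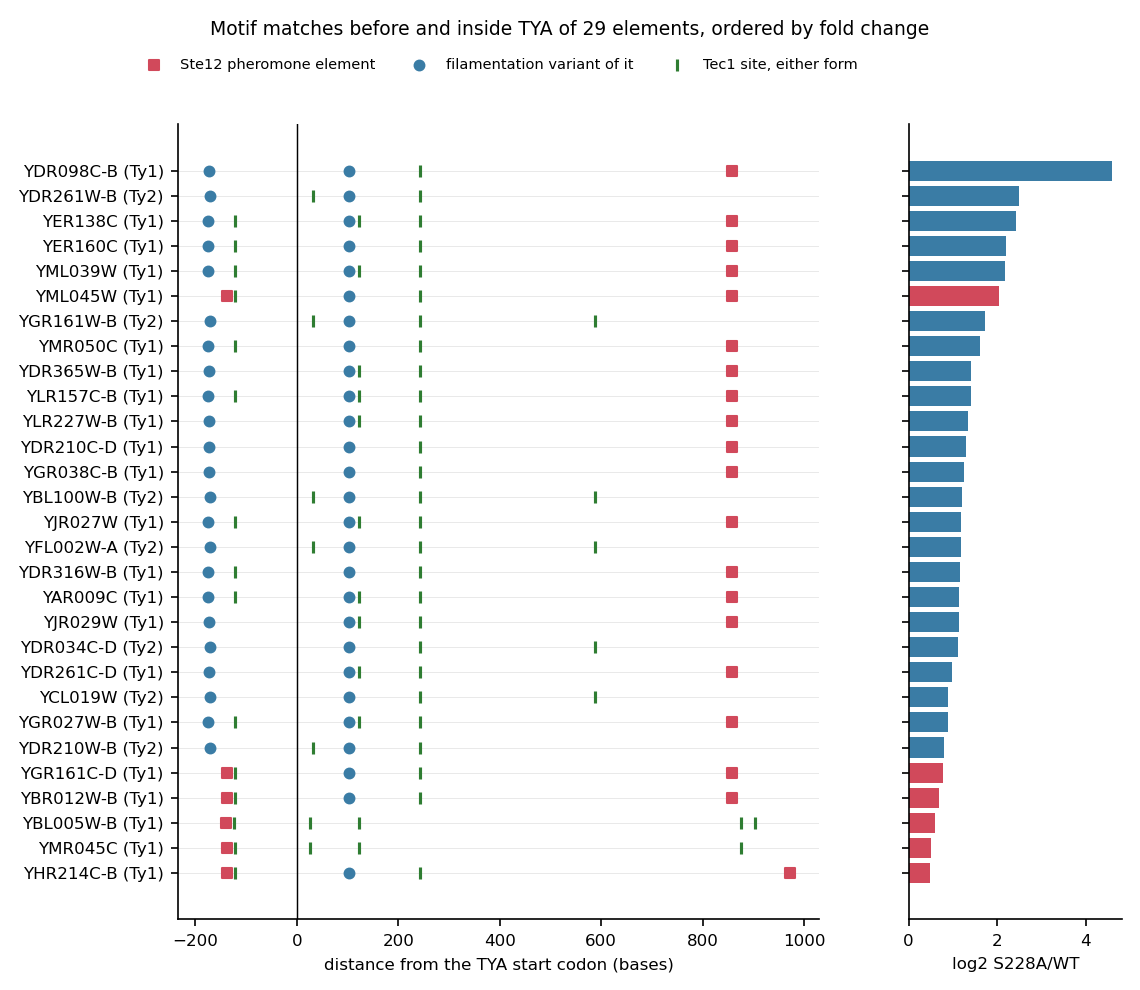
The left panel marks matches to the Ste12 pheromone element (squares), its filamentation variant (circles) and Tec1 sites (ticks) by their distance in bases from the TYA start codon, for 29 elements ordered by fold change. The right panel gives the log2 fold change in S228A against WT, red for the 6 elements with the pheromone element in the LTR, 5 of which are at the bottom.

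In S228E against WT only 1 of the 31 rows was called higher and none lower, by edgeR, limma-voom and DESeq2 alike. The background over all rows was 0.0326% higher, 0.0163% lower and 0.0489% in either direction. At an unadjusted p under 0.05, 5 rows were higher and none lower. Estimates lay above 0 in 25 rows, with a median log2 fold change of 0.17, against -0.0037 over all rows. The called row was YAR009C, a TYB frame on chromosome I (160597 to 164187, minus strand). It measured 44.7, 43.2 and 44.2 CPM in WT, 74.9, 69.5 and 70.9 CPM in S228E and 106, 90.4 and 96.5 CPM in S228A. The 3 strains did not overlap, with S228E between WT and S228A. The change in S228E was 1.63-fold (log2 0.71 ± 0.07, edgeR adjusted p = 0.00313) and that in S228A 2.22-fold (log2 1.15 ± 0.07). Its own TYA row YAR010C had log2 0.46 ± 0.36 in S228E, with a 95% interval of -0.25 to 1.17. SEN34, a tRNA splicing endonuclease gene 445 bases downstream of the element, had log2 0.02 in S228E and fell in S228A (log2 -1.07 ± 0.13, edgeR adjusted p = 4.33e-05).

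Of the other 4 rows with an unadjusted p under 0.05 in S228E, the scarce row YDR316W-B had a larger estimate than YAR009C and the other 3 had smaller ones. YDR316W-B measured 0.613, 1.11 and 1.43 CPM in WT and 4.09, 1.41 and 2.77 CPM in S228E, which overlap (2.66-fold, log2 1.41 ± 0.43, 95% interval 0.56 to 2.25, edgeR adjusted p = 0.644). YGR038C-B measured 110, 113 and 98.1 CPM in S228E, above its WT values (1.21-fold, log2 0.28 ± 0.08, adjusted p = 0.644). YBL005W-B had 101, 85.3 and 91.0 CPM (1.16-fold, adjusted p = 0.77) and YJR029W was at 1.15-fold (adjusted p = 0.828). The 95% intervals of the log2 changes of YGR038C-B, YBL005W-B and YJR029W were 0.12 to 0.44, 0.05 to 0.39 and 0.03 to 0.38. That all 3 intervals lay above 0 follows from choosing these rows by their p and adds no support. Their upper ends correspond to less than the fold threshold. YMR045C, YJR027W and YGR027W-B had 1.12-fold, 1.11-fold and 1.17-fold estimates with adjusted p of 0.849, 0.857 and 0.857. YER138C was at 0.377-fold (log2 -1.41 ± 0.94), with an interval of -3.25 to 0.43. YDR098C-B, with the largest change in S228A, had log2 0.18 ± 0.14 and an interval of -0.09 to 0.45 in S228E.

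In S228E against S228A, which shares the S228A libraries with the first comparison, 23 of 31 rows were called lower and none higher by edgeR. The background over all rows was 4.35% lower, 6.73% higher and 11.1% in either direction. No row was higher at an unadjusted p under 0.05, and limma-voom and DESeq2 called none higher. The median log2 fold change was -1.04, against -0.0042 over all rows. YDR098C-B had -4.41 ± 0.11 (adjusted p = 1.83e-11), YDR261W-B -2.40 ± 0.12, YLR227W-B -1.24 ± 0.09 and YBL100W-B, a Ty2 row, -1.12 ± 0.14. These rows carry both families and both high and low levels. YJR027W and YJR029W fell by 1.04 and 0.93 on the log2 scale. YAR009C was 0.735-fold of its S228A level (log2 -0.44 ± 0.07, adjusted p = 0.000541), short of the fold threshold, as were YMR045C (log2 -0.34 ± 0.08) and YBL005W-B (-0.38 ± 0.09).

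The Ty1 and Ty2 rows outside the 59, 23 rows, had a summed level of 640 ± 31.1 CPM in S228A, 286 ± 9.72 CPM in WT and 302 ± 50.2 CPM in S228E (SD, n = 3). Their ratio of S228A to WT was 2.24, beside 2.27 for the 59 rows. The Ty4 rows, another LTR element of the same superfamily, had a ratio of 2.59. The 3 rows of Ty5 remnants, also of that superfamily, together held 2, 4 and 0 counts in the WT libraries, 1854, 2980 and 2496 counts in S228A and 0, 5 and 2 counts in S228E. The rows of Ty3, which is of the other superfamily of yeast LTR elements and is induced by pheromone, had a ratio of 25.3. No test between families was made.

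Genes that act on Ty1 transcription were described next. Of 8 transcription factors of Ty1 or Ty2, 4 were called higher in S228A and none lower (median log2 0.44), beside 4.37% and 7.81% of all rows. TEC1, whose product binds Ty1 with Ste12, went from 129, 104 and 219 CPM in WT to 408, 552 and 351 CPM in S228A (log2 1.54 ± 0.24, edgeR adjusted p = 0.000352). STE12 went from 71.6, 68.9 and 90.3 CPM to 112, 173 and 120 CPM (log2 0.81 ± 0.15, adjusted p = 0.00101). Neither gene overlapped between the strains, and in 20.2% of all tested rows every S228A value lay above every WT value. TYE7, a helix-loop-helix activator of glycolytic genes and Ty1, had log2 0.77 ± 0.09, and TEA1, named as a Ty1 enhancer activator, 0.73 ± 0.11. MCM1, GCN4, RAP1 and GCR1 were not called.

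Of 8 genes of the filamentation and mating kinase cascade, 3 were called higher and none lower (median log2 0.29), beside 4.37% and 7.81% of all rows. FUS3, the mating MAP kinase, which restrains Tec1 and Ty1, measured 80.0, 102 and 77.7 CPM in WT against 280, 284 and 312 CPM in S228A (log2 1.76 ± 0.10, adjusted p = 3.42e-08). KSS1, the filamentation MAP kinase, measured 47.4, 52.7 and 54.1 CPM in WT against 76.6, 86.1 and 77.3 CPM in S228A (log2 0.64 ± 0.09, adjusted p = 0.000157). DIG2, an inhibitor of Ste12, had log2 1.16 ± 0.10, while DIG1, its partner, had -0.00 ± 0.07 and STE5, the scaffold, 0.28 ± 0.06, not called. In S228E against WT none of the 89 genes of these and the following lists was called by edgeR, limma-voom or DESeq2, with 4 higher and 1 lower at an unadjusted edgeR p under 0.05. STE12 stood at log2 0.22, TEC1 at 0.09, FUS3 at 0.05 and KSS1 at -0.02 in S228E.

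Among chromatin genes of Ty1 transcription, all edgeR calls in S228A were lower. Over all tested rows 7.81% were called lower and 4.37% higher. Of 20 SPT, SAGA and SWI/SNF genes, SPT21, which acts on histone genes, was called lower (15.3, 15.5 and 12.7 CPM in WT and 7.82, 8.01 and 7.71 CPM in S228A, log2 -0.89 ± 0.16, adjusted p = 0.000922). None was called higher by edgeR, limma-voom or DESeq2, 2 were higher at an unadjusted edgeR p under 0.05, and the median was -0.20. NGG1, SNF5 and SWI3 had log2 -0.50, -0.48 and -0.47 and missed the fold threshold. Of 8 histone chaperone genes tied to Ty1, 3 were called lower and none higher by the 3 tools, with none higher at an unadjusted p under 0.05. They were CAC2 (log2 -1.03 ± 0.08) and RLF2 (-0.67 ± 0.13), subunits of chromatin assembly factor 1, and ASF1 (-0.99 ± 0.12), with a list median of -0.33.

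Of 21 genome caretaker genes, whose loss raises Ty1 transposition or cDNA, 6 were called lower and none higher by the 3 tools, 6 were higher at an unadjusted edgeR p under 0.05, and the median was -0.09. RTT107, a scaffold of the replication stress response, went from 45.0, 48.8 and 41.1 CPM in WT to 7.02, 5.78 and 9.25 CPM in S228A (log2 -2.61 ± 0.14, adjusted p = 1.52e-08). RAD27, the flap endonuclease, went from 36.1, 36.1 and 32.7 CPM to 11.9, 13.9 and 14.2 CPM (log2 -1.39 ± 0.10, adjusted p = 3.60e-07). RTT109, the acetyltransferase of lysine 56 of histone H3, had log2 -1.16 ± 0.12. S228A and WT did not overlap in RTT107 or RAD27, and in 24.3% of all tested rows every S228A value lay below every WT value. Of 10 RNA turnover genes none was called by the 3 tools, with 1 higher and 1 lower at an unadjusted p under 0.05. Of 14 integration partners, mainly RNA polymerase III subunits, HOS2, a deacetylase of the Set3 complex that favours Ty1 integration, was called higher (log2 1.085 ± 0.11). The polymerase III subunits RET1 and RPC40 had 0.38 and 0.35, not called. Over all tested rows 4.37% were called higher, 7.81% lower and 12.2% in either direction.

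**Figure D5:**
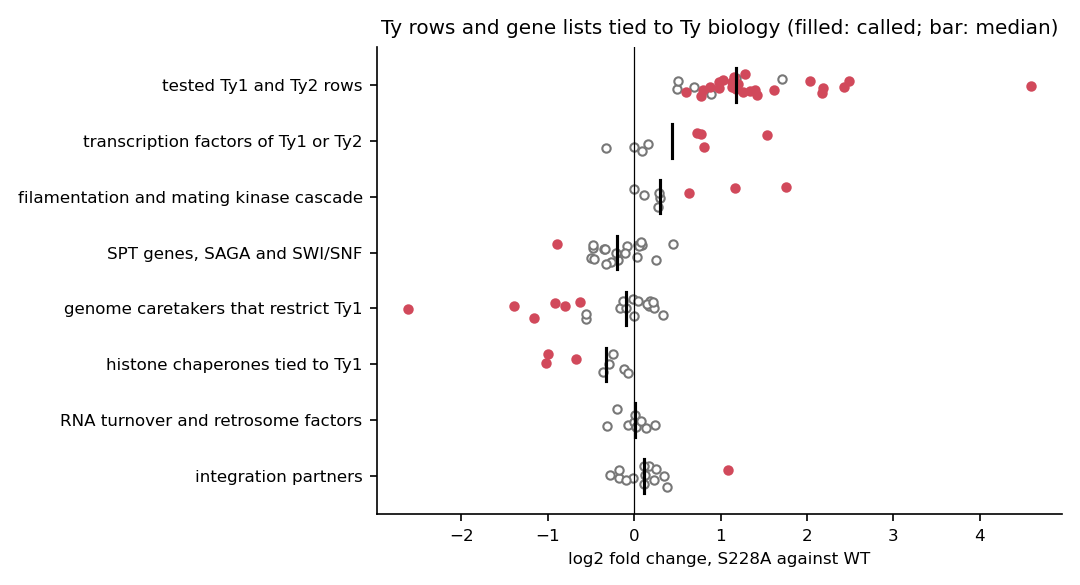
Each point is 1 row or gene, placed by its log2 fold change in S228A against WT, with the 31 Ty1 and Ty2 rows on top and 7 gene lists under them. Filled points were called and bars mark medians, which are 1.18 for the Ty rows, 0.44 for the transcription factors and -0.33 for the histone chaperones.

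The genes nearest to the elements were compared as a local reference. Of 53 tested neighbours, 6 were called higher and 5 lower in S228A, 20.8% against 12.2% of all rows, with a median log2 fold change of 0.10. In S228E none was called by edgeR, with 2 higher and 2 lower at an unadjusted p under 0.05, and DESeq2 called 1 higher. Both neighbours of YML045W, the element outside its LTR group, were called higher. RRN11, an RNA polymerase I initiation factor gene that ends 161 bases past the element and faces it, went from 6.70, 7.21 and 6.75 CPM in WT to 40.8, 54.8 and 35.9 CPM in S228A (log2 2.67 ± 0.19, edgeR adjusted p = 2.36e-07). PRP39, a splicing factor gene 807 bases upstream, had log2 1.29 ± 0.08. Their part in the YML045W value was not tested. A tRNA gene lay within 1000 bases of 23 of the 30 elements, and of the nearest tRNA rows 4 were tested and 3 called higher in S228A. Those were tS(AGA)D2, tG(GCC)D2 (log2 0.99), beside YDR261C-D, and tL(UAG)L1 (log2 0.72), beside YLR227W-B. tS(AGA)D2 entered the test through S228A alone, and this was not checked for the others. The share called among all tRNA rows was not computed, so nothing is concluded from this count.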

How the data were processed

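The deposited file is a single gene table of unnormalized counts covering the 9 libraries. Per the file headers, featureCounts 2.0.1 counted paired-end fragments over exons of the Ensembl annotation of sacCer3, with no option for strand, overlapping rows or multiply placed reads. Bowtie 0.12.2 and sacCer3 appear in the submitters' processing notes, and which tool aligned these reads is not stated. The labels' extraction text describes chromatin immunoprecipitation, the series' design text total RNA, and the table's columns were matched to the labels by genotype initial and replicate number. Elements, windows and sequences were read from the R64 genome, in which 6038 of 6047 matched rows had identical coordinates. Families follow the annotation, and YLR035C-A was placed in Ty1 by identity (94.8% to YJR027W, 77.3% to the Ty2 frame YCL019W).

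Counts were filtered with filterByExpr, scaled with TMM (factors 0.972 to 1.03) and tested with edgeR 4.0.16 (R 4.3.3) in 1 fit over the 9 libraries. SE is the size of the log2 change over the root of F, and 95% intervals are normal. limma 3.58.1 (voom), DESeq2 1.42.0, other scalings and filters, a replicate block and leaving out each library were alternatives. No library was a duplicate of another (chi-square per row between replicates 6.38 to 58.6). The test was checked on simulated counts. Named rows were, per comparison, up to 8 members of smallest p and at least 5 CPM, the most abundant 5, the extremes, members called in S228E, members at 5 CPM or more not called in S228A, and up to 4 list genes by p with STE12, TEC1, KSS1 and FUS3. YML045W and the uneven rows, the neighbours and the LTR forms were chosen after their values were seen. The members and lists were chosen with earlier results of these data known.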

Additional observations from a re-analysis of the deposited data

How the results depend on the processing

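In 17 alternative fits the rows called higher in S228A against WT numbered 21 to 25, beside 24, and 1 row was called in S228E against WT in each. Every count and summed ratio kept its direction and stayed within 1.5 times the value reported, and no named row changed sign. Leaving out 1 library gave 21 to 25 rows higher in S228A, 18 to 23 rows lower in S228E against S228A, and 1 row higher in S228E. The same fits gave log2 ratios of the summed rows from 1.104 to 1.24 (S228A against WT), 0.158 to 0.253 (S228E against WT) and -1.04 to -0.906 (S228E against S228A). With other scalings, with rows at 5 CPM or more, without YAR009C, or without YJR027W and YJR029W (chosen after seeing the data), the summed ratio of S228A to WT was log2 1.17 to 1.20. By subset it was 1.15 for rows with a unique 100-base window, 1.23 for those without and 1.55 for Ty2 rows. The Ty2 sum includes YDR261W-B, at 5.60-fold. YER138C was lost under limma-voom (adjusted p = 0.1601). YAR009C in S228E kept its call, with an adjusted p up to 0.0383. With a replicate block 23 rows were called in S228A, without YAR010C. Same-numbered libraries did not deviate together in every pair (correlations of -0.251 to 0.229) and were not each best correlated with their own number, so the numbers were not treated as pairing the samples. The depth limits rows under 5 CPM, 6 of the 31, and near-identical copies limit what any single row can show.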
